A study of Mus musculus with 7 samples.

Results

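The nasal tissue of mice that inhaled diesel exhaust particles (DEP) for 4 weeks was compared with that of control mice on 4 Agilent mouse arrays, of 7 arrays measured in all. All mice were female BALB/c mice given as 6 weeks old, and their tissue was taken after the exposure. The labels speak of 32 animals for the whole study. The DEP group breathed nebulized particles in saline at 100 µg/m3 for 1 h a day on 5 days a week, and the control group breathed saline without particles. The tissue was taken from the septum and the turbinates. On each array the RNA of exposed mice was labelled with the red dye Cy5 and that of control mice with the green dye Cy3, and every value below is the log2 ratio of the red over the green signal, so that 1 stands for 2-fold higher and -1 for 2-fold lower in the DEP tissue. The other 3 arrays hold the same comparison after 8 weeks of the same exposure.

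No array had the dyes swapped, so a difference between DEP and control tissue and a difference between the dyes cannot be told apart. Each exposure time had a slide of its own, so that time and slide cannot be told apart either. If all mice began at the same age, age at sampling also rose with exposure time and cannot be told apart from it. The labels call the arrays biological replicates, but the sources used here give neither the number of mice behind an array nor any pooling of control RNA, and p-values measure only the spread between these arrays. That spread was small. Among 1-spot probes that were bright on all 4 arrays, the median SD over arrays was 0.11, whereas 240 probes printed as 10 spots had a median SD of 0.15 between the spots of a single array. For these 240 probes the means of the 10 spots had a median SD of 0.071 over arrays.

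The nasal cavity holds several tissues that the turbinate and septum samples mix. Its respiratory part is lined by ciliated and secretory cells that clear inhaled particles with mucus. Its olfactory part holds sensory neurons, whose cilia carry odorant receptors and a cAMP cascade, the sustentacular cells that support them and Bowman's glands. Submucosal and lateral nasal glands secrete proteins that bind odorants and pheromones, squamous epithelium lines the entrance, and bone, cartilage and connective tissue carry the mucosa. Diesel exhaust particles are carbon cores coated with metals and organic compounds, and polycyclic aromatic hydrocarbons among these are known ligands of the aryl hydrocarbon receptor. In such bulk tissue, fewer cells of a type and less RNA per cell cannot be told apart.

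The markers of these tissues were present. The probes of *Omp* (mature olfactory neurons), *Bpifa1* (respiratory secretory cells), *Foxj1* (ciliated cells), *Krt5* (basal cells), *Cyp2g1* (Bowman's glands and sustentacular cells), *Scgb1c1* (Bowman's glands), *Muc5b* (mucous glands) and *Sox10* (glia and gland cells) were well above background in both channels of all 4 arrays. *Omp* rose, with log2 ratios of 0.80, 0.94, 0.98 and 0.85 (mean 0.89 ± 0.082, SD, n = 4 arrays; adjusted p = 0.000498), and *Scgb1c1* (0.41) and *Sox10* (0.32) rose as well. *Bpifa1* (0.04) and *Foxj1* (-0.09) did not pass the test, and *Cyp2g1* (0.16) did not pass it either. The call of *Krt5* (0.16, with -0.58 at its other probe) was lost when any 1 array was left out, that of *Muc5b* (0.25) without replicate 2, 3 or 4 and that of *Sox10* without replicate 2. Of the genes often used as references, *Gapdh* had a log2 ratio of 0.55 with its brightest probe (adjusted p = 0.00291) and of -0.05 to 0.55 over 7 probes, and *Actb* one of 0.24 that did not pass the test (adjusted p = 0.247).

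Of 39429 probes, 21850 were tested because at least 3 of the 4 arrays had them well above background with 1 or both dyes. Each of the 17960 genes or transcripts behind them is represented by its brightest tested probe. After 4 weeks, 192 genes were at least 2-fold higher in DEP tissue with an adjusted p of at most 0.05 (1.07% of those tested) and 69 were at least 2-fold lower (0.384%). The higher genes made up 73.6% of these calls, against 60.3% when the arrays were centred on their median in place of the loess curve and 85.3% with the signals that the scanner software had processed, which moved the median of all tested genes by 0.11. Of the 261 genes, 259 had the same sign on 4 of 4 arrays. Changes of at least 4-fold were seen for 21 higher and 9 lower genes, and changes of at least 8-fold for 7 higher and 0 lower genes. Without a limit on the fold, 4240 genes rose (23.6%) and 3035 fell (16.9%). In the accounts of gene groups below, "rose" and "fell" mean this adjusted p without a fold limit, and these shares are the background against which a group's counts are read. Without replicate 2 the counts were 2594 and 1537, and the count of genes that fell was 1970 without replicate 3 and 1769 without replicate 4.

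**Figure D1:**
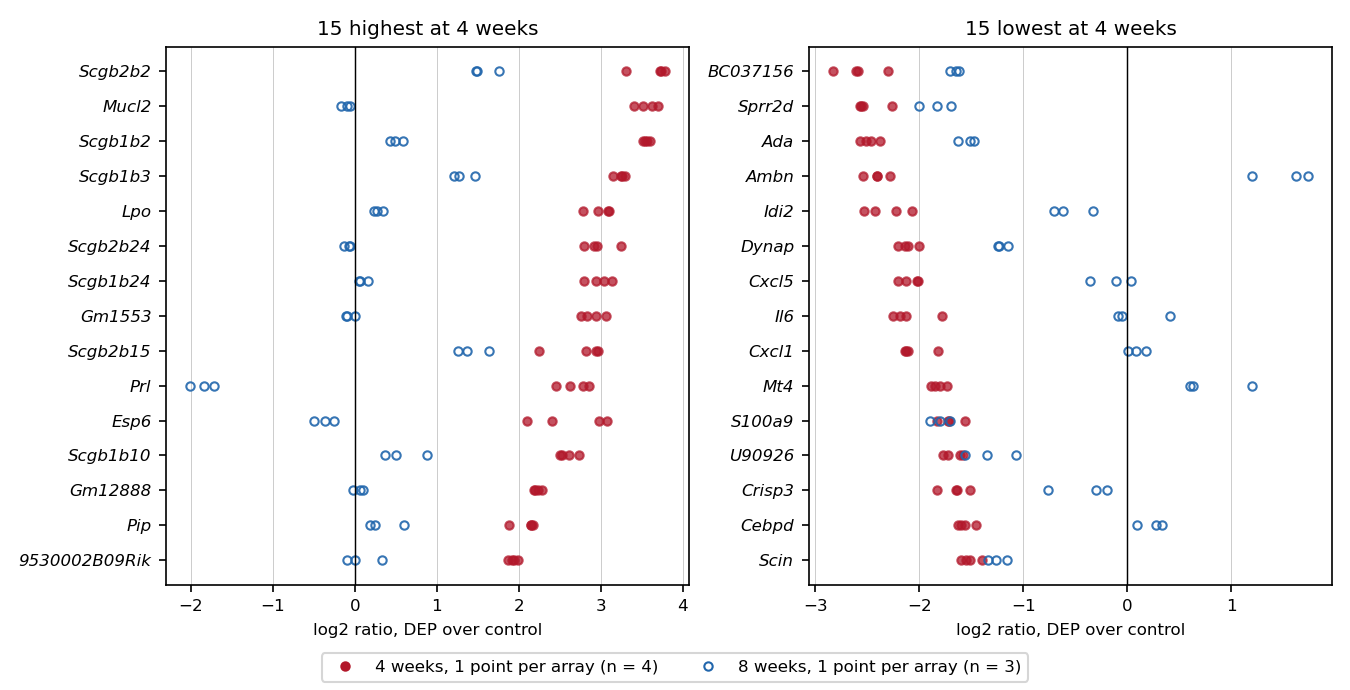
Log2 ratio of DEP over control (x axis) for the 15 genes with the highest and the 15 with the lowest mean after 4 weeks among called genes with a RefSeq symbol and the same sign on 4 of 4 arrays, with 1 filled point per 4-week array (n = 4) and 1 open point per 8-week array (n = 3). The 4 filled points of a gene lie close together, from 1.87 to 3.79 on the left and from -2.83 to -1.40 on the right, and most open points lie nearer to 0.

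Among genes with a symbol, the highest ratios after 4 weeks belonged mostly to secreted proteins of nasal and related glands. First among them were the androgen-binding secretoglobins, small secreted proteins of glands and of saliva that act as odour cues between mice and are encoded by a large cluster of alternating alpha (Scgb1b) and beta (Scgb2b) genes on chromosome 7. Of 24 such genes listed, 18 were on the array and 17 could be tested. Of these 15 rose, 13 of them at least 2-fold, and 1 fell, with a median log2 ratio of 1.85, against 0.0053 over all tested genes. The genes are close paralogs, so a probe may read more than 1 of them.

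The stretches just upstream of the gene starts are shown for 2 alpha and 2 beta genes of this cluster, to set the promoters of members with high ratios side by side. They were taken from the RefSeq promoters of GRCm38.p6 (100 bases before the start, 5′ to 3′ on the gene's strand), and the capitals mark TATAAA on either strand, which 12.37% of 32851 promoter windows of 250 bases hold.
Scgb1b2 (chr7:31291817-31291916, minus strand): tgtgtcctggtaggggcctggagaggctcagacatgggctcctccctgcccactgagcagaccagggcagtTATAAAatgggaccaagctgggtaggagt
Scgb1b24 (chr7:33743683-33743782, plus strand): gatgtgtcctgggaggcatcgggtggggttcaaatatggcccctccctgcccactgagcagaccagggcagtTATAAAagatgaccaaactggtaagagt
Scgb2b2 (chr7:31302669-31302768, plus strand): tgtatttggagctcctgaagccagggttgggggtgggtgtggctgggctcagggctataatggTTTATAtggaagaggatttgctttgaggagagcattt
Scgb2b24 (chr7:33739296-33739395, minus strand): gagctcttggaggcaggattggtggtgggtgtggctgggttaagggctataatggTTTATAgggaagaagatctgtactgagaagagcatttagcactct
Over the 13 tested members with a promoter window, the 250 bases upstream were identical at a median of 72% of aligned positions between beta genes (28 pairs, 45.5% to 96%), of 50% between alpha genes (10 pairs, 47.1% to 84.4%) and of 47.8% between an alpha and a beta gene (40 pairs).

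*Scgb2b2* had log2 ratios of 3.31, 3.73, 3.79 and 3.73 on the 4 arrays, which is a 12.5-fold difference (mean 3.64, SE 0.093, adjusted p = 0.000103). *Scgb1b2* was at 3.51, 3.57, 3.54 and 3.61 (mean 3.56, SE 0.042, adjusted p = 3.55e-05). All 4 arrays were high for both genes, and only replicate 1 of *Scgb2b2* stood below the rest. *Scgb1b3* (mean 3.23), *Scgb2b24* (2.98), *Scgb1b24* (2.98) and *Scgb1b10* (2.59) followed. *Scgb2b15* had a mean of 2.74 with its brightest probe and one of -1.53 with its other probe. A second set of members was lower, with *Scgb1b20* at 1.86, *Scgb2b20* at 1.85, *Scgb1b19* at 1.80, *Scgb1b7* at 1.56, *Scgb2b7* at 1.16 and *Scgb1b30* at 1.01. *Scgb2b27* (0.13) did not pass the test, and *Scgb2b12*, at -0.27, was the member that fell.

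The members divided by exposure time. The alpha and beta genes with the highest ratios at 4 weeks were lower at 8 weeks, where *Scgb1b2* was at 0.50, *Scgb2b24* at -0.09 and *Scgb1b24* at 0.09, and the differences of -3.06, -3.07 and -2.89 passed the test (adjusted p = 7.24e-07, 2.52e-06 and 2.04e-06). *Scgb1b7*, *Scgb2b7* and *Scgb1b19* went the other way, to 4.49, 3.94 and 4.17 at 8 weeks, which is higher by 2.93, 2.78 and 2.37 (adjusted p = 1.99e-06, 1.31e-05 and 2.05e-06). Of the 17 tested members, 7 were lower and 8 higher at 8 than at 4 weeks at an adjusted p of at most 0.05, against 19.1% and 15.9% of all tested genes.

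Other gland products lay beside the secretoglobins. *Mucl2*, a small mucin-like secreted protein, had log2 ratios of 3.70, 3.63, 3.52 and 3.40 (mean 3.56, SE 0.062, adjusted p = 5.71e-05). *Lpo*, the lactoperoxidase of airway and salivary secretions, was at 2.78, 2.96, 3.08 and 3.10 (mean 2.98, SE 0.068, adjusted p = 7.51e-05), and *Pip*, a secreted protein of exocrine glands, at 1.88, 2.14, 2.17 and 2.14 (mean 2.08). All 4 arrays lay above 1.8 for these genes. *Esp6* (2.64), of the exocrine gland-secreted peptides, and *Gm1553* (2.90), *Gm12888* (2.22) and *9530002B09Rik* (1.93), whose functions are not described here, stood in the same range, and all 7 of these genes were lower at 8 weeks, at -0.37 to 0.34.

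Not every gland product rose. In a list of salivary and lacrimal gland genes, 8 of 21 tested members rose and 9 fell (median -0.07). The members that rose included *Dnase1* (0.94), a secreted nuclease, and those that fell included *Dcpp1* (-0.51), of the demilune cell proteins, and several kallikreins, secreted proteases of such glands. The 17 tested kallikrein genes (Klk) had a median of -0.26, with 13 that fell and 0 that rose, and their median at 8 weeks was 1.12. The major urinary proteins, pheromone carriers made in liver and in nasal glands, had a median of -0.58 over 10 genes, of which 6 fell and 1 rose, with *Mup5* at -0.98 (adjusted p = 0.00148) and *Mup6* at -0.64 (adjusted p = 0.00266). The odorant-binding proteins *Lcn3* (0.61) and *Obp2a* (0.50) rose.

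Airway mucins and secretory proteins rose in part. Of 23 tested genes of the airway secretory list, 13 rose and 6 fell (median 0.35). *Muc4*, a membrane-tethered mucin, had log2 ratios of 1.43, 1.25, 1.17 and 1.34 (mean 1.30, SE 0.058, adjusted p = 0.000311), and its other probe gave 0.35. *Muc5ac*, the mucin of goblet cells, was at 0.95, 1.28, 1.47 and 1.12 (mean 1.21, SE 0.093, adjusted p = 0.00105). *Bpifb1* (0.70) and *Bpifb9b* (0.66), lipid-binding proteins of the airway surface, rose, and *Bpifa2*, a salivary relative, fell (-0.63). Of 19 antimicrobial genes 8 rose and 2 fell, with *Pglyrp1*, which binds bacterial peptidoglycan, at 0.83 and *Slpi*, a protease inhibitor of secretions, at -1.23 (SE 0.043, adjusted p = 0.000224).

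Genes of ciliated cells and of airway ion transport rose more often than tested genes as a whole. Of 41 genes of motile cilia, 22 rose and 0 fell, with a median of 0.26 over the means and of 0.27 to 0.31 on single arrays. *Mcidas*, a regulator that starts the multiciliated cell programme, was at 0.70, 0.81, 0.88 and 0.70 (mean 0.77, adjusted p = 0.000747). *Cfap69*, a protein of cilia and flagella, was at 0.62, 0.61, 0.55 and 0.56 (mean 0.59, adjusted p = 0.000847), with 0.92 at its other probe, and the axonemal dynein *Dnah2* had a mean of 0.58. Of 23 ion transport genes 13 rose and 0 fell (median 0.25), among them the water channel *Aqp4* (0.94, adjusted p = 0.000354, other probe 0.45), the bicarbonate transporter *Slc4a8* (0.83, adjusted p = 0.000386) and the sodium pump subunit *Atp1b1* (0.53). At 8 weeks the medians were 0.07 for the cilia and 0.01 for ion transport. *Mcidas* was at 0.72 then, nearly as at 4 weeks. A dye difference at its probe cannot be told apart from one between the tissues.

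Genes of mature olfactory neurons were higher in the DEP tissue. In the cilia of these neurons an odorant receptor activates the G protein made with *Gnal*, cAMP rises and a channel of *Cnga2*, *Cnga4* and *Cngb1* opens. Of 30 tested genes of this cascade and of mature neurons 19 rose and 1 fell, with a median of 0.42 and of 0.32 to 0.44 on single arrays. *Gnal* was at 0.45, 0.71, 0.73 and 0.53 (mean 0.61, adjusted p = 0.00254). *Cngb1* (0.43), *Gng13* (0.52), a G protein subunit, *Stoml3* (0.44), a membrane protein of olfactory cilia, and the phosphodiesterase *Pde4a* (0.86) rose, as did *Ebf4* (1.12), a transcription factor of the neurons, whose other probe gave 0.15. The adenylyl cyclase *Adcy3*, which makes the cAMP, had values of -0.76, 0.48, 0.42 and 0.06 and did not pass the test. *Cartpt*, a neuropeptide, was the member that fell (-0.58, adjusted p = 0.00386).

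These neuronal genes turned at 8 weeks. The median of the 30 genes was then -0.41, and 24 of them were below 0, as 50.8% of all tested genes were. At an adjusted p of at most 0.05, 24 were lower and 1 higher at 8 than at 4 weeks, against 19.1% and 15.9% of all tested genes. *Omp* went from 0.89 to -0.43 (difference -1.32, adjusted p = 5.51e-05) and *Gnal* from 0.61 to -0.72 (difference -1.32, adjusted p = 6.12e-05). Genes of sustentacular cells and Bowman's glands moved alike, with 12 of 22 that rose and 3 that fell at 4 weeks (median 0.31) and a median of -0.41 at 8 weeks.

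Odorant receptors themselves were near the limit of detection, at a median log2 intensity of 6.79 against 8.27 for all tested genes. Of 235 tested *Olfr* genes, 61 rose (26%) and 7 fell, with a median of 0.08. Their share of higher genes lay near the background of 23.6%, and that of lower genes lay below the background of 16.9%. At least 2-fold, 2 were called higher and 1 lower, against 1.07% and 0.384% of all tested genes. *Olfr1348* was 3.0-fold higher, with log2 ratios of 1.70, 1.56, 1.55 and 1.59 (SE 0.047, adjusted p = 0.000154), and its control signal was well above background on 2 of 4 arrays only. The vomeronasal receptors had 5 of 13 (Vmn1r) and 7 of 20 (Vmn2r) that rose and 0 that fell.

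Immature neurons, synapses and axon guidance gave mixed results. Of 21 genes of olfactory progenitors and immature neurons 7 rose and 2 fell (median 0.13), with *Dpysl5*, a protein of growing axons, at 1.17, 1.02, 1.03 and 1.07 (mean 1.07, adjusted p = 0.000293), and *Ncam1* (0.59), *Gng8* (0.52) and *Stmn4* (0.51) lower but also risen. *Dpysl5* was at 1.18 at 8 weeks, and a dye difference at its probe cannot be told apart from one between the tissues. Of 27 synaptic genes 12 rose and 3 fell (median 0.23). Those that rose include the vesicle fusion gene *Snap25* (0.77), and those that fell are the vesicle protein *Synpr* (-0.57, adjusted p = 0.00591), *Gad1*, which makes GABA (-0.67, adjusted p = 0.00287), and *Cplx1* (-0.70). *Slc32a1*, which loads GABA into vesicles, was at -2.48, -0.47, -0.66 and -0.53, and *Gad2* at -0.26, -0.26, -0.21 and -3.00, so that 1 array set each mean and neither passed the test.

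The semaphorins *Sema4c* and *Sema6d* and the ephrin receptor *Epha5*, all of them guidance molecules of growing axons, were 2-fold higher. *Sema4c* had log2 ratios of 1.27, 1.14, 1.20 and 1.12 (mean 1.18, SE 0.047, adjusted p = 0.000253), *Epha5* a mean of 1.12 (its other probe 0.30) and *Sema6d* one of 1.03. These 3 genes had nearly the same ratios at 8 weeks, at 1.30, 1.26 and 1.22. A dye difference at such probes cannot be told apart from one between the tissues. Of 41 guidance genes 15 rose and 3 fell, with a median of 0.11. *Kcna4*, a voltage-gated potassium channel, had a mean of 1.22 (adjusted p = 0.000262) and of 1.51 at 8 weeks, and the same limit holds for it. Of 24 potassium channels 8 rose and 2 fell.

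**Figure D2:**
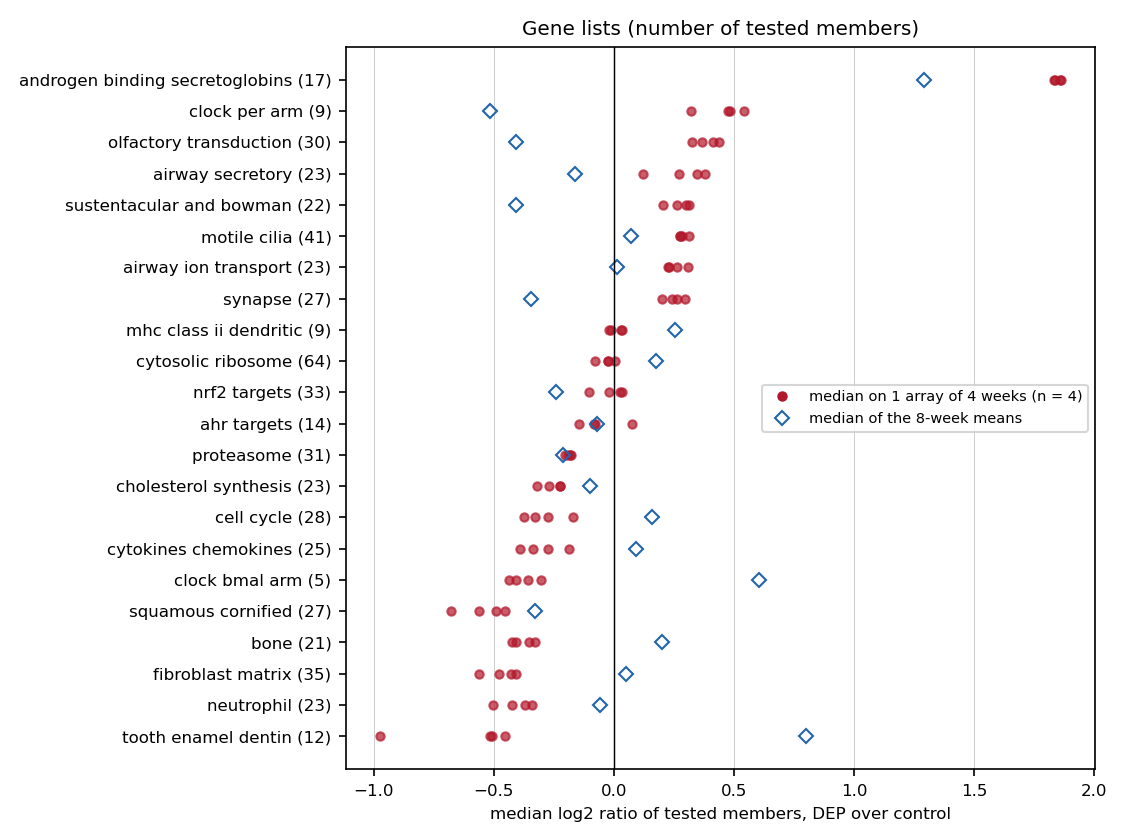
Median log2 ratio of DEP over control (x axis) of the tested members of 22 gene lists, with the number of members in brackets, as 1 filled point per 4-week array (n = 4) and an open diamond for the median of the 8-week means. The 4-week arrays lie on the same side of 0 for the secretoglobins, the clock, neuronal, cilia, matrix, squamous and tooth genes. The diamonds lie across 0 from them for the clock, olfactory transduction, airway secretory, sustentacular, synapse, cell cycle, cytokine, bone, matrix and tooth lists. Those of the cytokine and matrix lists lie near 0.

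Genes of squamous epithelium fell. This lining is built from keratins and from proteins that are cross-linked into a cornified envelope, among them the small proline-rich proteins. Of 27 tested squamous and cornified envelope genes 21 fell and 2 rose, 7 of them falling at least 2-fold (0.384% of tested genes did), with a median of -0.42. *Sprr2d*, a small proline-rich protein, was at -2.26, -2.54, -2.56 and -2.57, which is 5.6-fold lower (SE 0.068, adjusted p = 0.000121). *Krt13* (-1.27), *Krt4* (-1.20), *Krt16* (-1.19) and *Sprr1b* (-1.27) are keratins and an envelope precursor of stratified epithelia that fell on 4 of 4 arrays. Outside the list, *Krtdap* (-1.10), of keratinocytes, fell likewise. *Sprr2f* (0.56) and *Tgm3* (0.60), a cross-linking enzyme, rose, the latter with -0.47 at its other probe.

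Of 13 genes of basal cells, from which these layers renew, 6 fell and 3 rose (median -0.21). *Krt15* rose 2.1-fold (mean 1.08) and *Krt14* fell (-0.54). At 8 weeks the squamous genes had a median of -0.33. *Sprr2d* (-1.84) and *Cnfn* (-1.34) were low there too, while *Sprr1b* was at 0.19, a difference of 1.47 (adjusted p = 7.6e-06).

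Cytokines and chemokines were lower in DEP tissue. Of 48 listed genes 47 were on the array and 25 were bright enough to be tested. Of these 14 fell, 3 of them at least 2-fold, and 1 rose (the chemokine *Ccl9*, 0.25), with a median of -0.34. The call of *Ccl9* was lost when replicate 2, 3 or 4 was left out. The same held for *Cxcl10* (-0.59) and *Tnf* (-0.40), which are counted among the genes that fell. *Cxcl5*, a chemokine that draws neutrophils, was at -2.01, -2.02, -2.20 and -2.12, which is 4.3-fold lower (SE 0.052, adjusted p = 9.53e-05). *Il6*, a cytokine of the acute response, was at -1.78, -2.13, -2.25 and -2.18 (mean -2.09, SE 0.088, adjusted p = 0.000282), and *Cxcl1*, a further neutrophil chemokine, at -1.82, -2.11, -2.13 and -2.13 (mean -2.05, SE 0.070, adjusted p = 0.00022). On every array these genes were low, with replicate 1 the least low for *Il6* and *Cxcl1*.

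Further members and partners fell by less. *Il1b*, an early inflammatory cytokine, was at -0.84, -1.02, -0.94 and -0.87 (mean -0.92, adjusted p = 0.00046), *Ccl2*, a monocyte chemokine, had a mean of -0.68 and *Nfkbia*, the inhibitor that NF-kappaB induces against itself, one of -0.42. *Nos2*, the inducible nitric oxide synthase, did not pass the test (0.19). Outside the list, *Cebpd*, a transcription factor of the acute response, had a mean of -1.56 (SE 0.049, adjusted p = 0.000189), *Cd14*, a co-receptor for bacterial lipopolysaccharide, one of -1.39 and *Saa3*, an acute phase protein, one of -1.17. The DEP signal of *Saa3* was well above background on 1 of 4 arrays only. At 8 weeks *Cxcl5* was at -0.14, *Il6* at 0.09, *Cxcl1* at 0.09, *Cebpd* at 0.24 and *Cd14* at 0.14, and each of these differences from 4 weeks passed the test.

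The promoters of *Cxcl1* and *Il6* are shown because NF-kappaB is a known regulator of both genes and both fell. They are the 250 bases before the start in the RefSeq promoters of GRCm38.p6, and the capitals mark NF-kappaB letters on either strand, searched as GGGA, 2 bases of any kind and TTCC, or as GGG, 2 bases of any kind and TTTCC, matches of which may overlap.
Cxcl1 (chr5:90890995-90891244, plus strand): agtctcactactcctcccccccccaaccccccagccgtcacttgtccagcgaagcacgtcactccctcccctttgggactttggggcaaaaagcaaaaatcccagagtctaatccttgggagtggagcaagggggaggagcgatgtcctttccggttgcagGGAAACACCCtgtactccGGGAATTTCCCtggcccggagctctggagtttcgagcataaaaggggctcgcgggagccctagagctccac
Il6 (chr5:30012864-30013113, plus strand): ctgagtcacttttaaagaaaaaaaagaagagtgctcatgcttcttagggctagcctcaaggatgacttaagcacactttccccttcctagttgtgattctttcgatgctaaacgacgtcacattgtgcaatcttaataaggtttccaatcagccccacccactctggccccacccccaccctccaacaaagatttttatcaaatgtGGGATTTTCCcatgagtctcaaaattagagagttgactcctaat
Of 18 tested members of the cytokine list with a promoter window, 6 held such a match (*Ccl9*, *Csf1*, *Nfkbia*, *Cxcl10*, *Cxcl1* and *Il6*), and 2.59% of all genes with a window did. A match is a description of the letters and shows no binding.

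Neutrophil genes fell more often than they rose, with 14 and 4 of 23 tested (median -0.44). *S100a9* was at -1.56, -1.71, -1.73 and -1.82 (mean -1.71, SE 0.056, adjusted p = 0.000204), *Retnlg* had a mean of -1.19, *Camp*, an antimicrobial peptide, one of -0.93 and *S100a8*, the partner of *S100a9*, one of -0.78. *Csf3r*, the receptor for the growth factor of granulocytes, was higher, at 1.48, 1.27, 1.22 and 1.16 (mean 1.28, adjusted p = 0.000386), and so were *Trem1* (0.56), a receptor of myeloid cells, and, outside the list, *Itgam* (0.77), an integrin of myeloid cells. *S100a9* (-1.80) and *S100a8* (-1.78) were low at 8 weeks too. Of 20 macrophage and monocyte genes 8 fell and 3 rose. Lymphocyte genes were mostly too dim to test, since 8 of 22 T and NK cell genes could be tested, of which 2 rose and 1 fell. Among 9 tested genes of MHC class II and dendritic cells 1 rose and 0 fell. *Tnfrsf9*, a receptor of activated T cells, was higher at both times (1.15 and 1.34). *Csf3r* and *Tnfrsf9* each had nearly the same ratio at both times. A dye difference at such probes cannot be told apart from one between the tissues.

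Proteins of forming teeth, which lie close to the nasal cavity in the upper jaw of mice, fell. Ameloblasts lay down enamel with ameloblastin, amelogenin and enamelin, and odontoblasts make dentin with the product of *Dspp*. Of 12 tested tooth genes 6 fell, 5 of them at least 2-fold, and 1 rose, with a median of -0.62. *Ambn* was at -2.28, -2.41, -2.40 and -2.54, which is 5.3-fold lower (SE 0.056, adjusted p = 7.65e-05). *Amelx* (-1.48), *Enam* (-1.47), *Odam* (-1.33) and *Dspp* (-1.17) were all below -1.1 on each of the 4 arrays, and *Dmp1*, *Lef1*, *Msx2* and *Klk4* did not pass the test. At 8 weeks all 12 genes were above 0 (median 0.80), as 49.2% of all tested genes were, with *Ambn* at 1.52 and *Dspp* at 1.41. By the test of the difference 10 of 12 were higher at 8 than at 4 weeks, against 15.9% of all tested genes. The difference for *Ambn* was 3.93 (adjusted p = 2.28e-06).

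Bone and matrix genes went the same way. Of 21 bone genes 14 fell and 1 rose (median -0.44), among them the collagenase *Mmp13* (-1.24, -1.53, -1.54 and -1.45, mean -1.44, adjusted p = 0.000338), *Omd* (-0.96) and *Phex* (-0.67), proteins of mineralizing bone, and the osteocalcin gene *Bglap* (-0.56). The brighter *Bglap3* fell by less (-0.28, with 0.65 at another probe), and the brighter *Bglap2* (-0.15) did not pass the test. Of 35 fibroblast and matrix genes 25 fell and 0 rose (median -0.44). *Postn*, a matrix protein of periosteum and periodontal ligament, had a mean of -1.30 (adjusted p = 0.000386), *Col3a1* one of -1.11 and *Timp1*, an inhibitor of matrix proteases, one of -1.10. At 8 weeks the medians were 0.20 for bone and 0.05 for matrix. Of 35 matrix genes 21 were higher and 0 lower at 8 than at 4 weeks, against 15.9% and 19.1% of all tested genes. *Comp*, a cartilage protein, was at -0.78, -0.17, -2.14 and -0.03 and did not pass the test.

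The genes of the circadian clock moved in opposite groups. The clock proteins made by *Arntl* and *Clock* switch on *Per1*, *Dbp*, *Tef* and *Hlf* through E-boxes, and the products of *Nr1d1* and *Nr1d2* hold *Arntl* down, so that both groups peak at different times of day. Of 9 tested genes of the Per group 6 rose, 2 of them at least 2-fold, and 0 fell (median 0.43), and of 5 tested genes of the Bmal group 3 fell and 0 rose (median -0.38). *Dbp*, a transcription factor and clock output, was at 1.98, 1.67, 1.57 and 1.55, which is 3.2-fold higher (SE 0.084, adjusted p = 0.000358). *Per1* was at 0.95, 0.96, 0.88 and 1.22 (mean 1.00, adjusted p = 0.000784), *Tef* had a mean of 0.98 (adjusted p = 0.000498) and *Hlf* was at 1.11, 0.88, 0.81 and 0.86 (mean 0.92). *Arntl* was at -0.72, -0.95, -0.91 and -1.02 (mean -0.90, adjusted p = 0.000828), *Nfil3*, a repressor that competes with *Dbp*, had a mean of -0.93 and *Clock* one of -0.38. Every array had the former genes above and the latter below 0.

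At 8 weeks most of these genes lay on the other side of 0. *Dbp* was then at -1.06 (difference -2.75, adjusted p = 9.44e-06), *Tef* at -0.54, *Hlf* at -0.53, *Per1* at 0.07, *Arntl* at 0.70 (difference 1.60, adjusted p = 0.000142) and *Nfil3* at 1.24 (difference 2.17, adjusted p = 0.000187). Of the Per group 8 of 9 genes were lower, and of the Bmal group 4 of 5 were higher, at 8 than at 4 weeks. Of all tested genes 19.1% were lower and 15.9% higher. *Nr1d1* (0.12), *Per2* (0.09) and *Bhlhe40* (-0.05) did not pass the test at 4 weeks. The hour of day at which tissue was taken in each group is not given in the sources used here, and its part in these values was not tested.

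The promoters of *Per1* and *Tef* are shown because these genes rose and hold the E-box letters. They are the 250 bases before the start in the RefSeq promoters of GRCm38.p6 (1 of 2 starts listed for each gene), and the capitals mark the E-box CACGTG and the D-box TTATGNAA, the site of *Dbp*, *Tef* and *Hlf*, on either strand.
Per1 (chr11:69098699-69098948, plus strand): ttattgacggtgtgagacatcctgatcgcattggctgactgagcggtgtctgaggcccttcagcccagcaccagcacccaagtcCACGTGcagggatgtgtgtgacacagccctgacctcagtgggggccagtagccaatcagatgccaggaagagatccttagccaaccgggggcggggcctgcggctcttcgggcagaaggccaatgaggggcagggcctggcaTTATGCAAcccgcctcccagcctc
Tef (chr15:81802423-81802672, plus strand): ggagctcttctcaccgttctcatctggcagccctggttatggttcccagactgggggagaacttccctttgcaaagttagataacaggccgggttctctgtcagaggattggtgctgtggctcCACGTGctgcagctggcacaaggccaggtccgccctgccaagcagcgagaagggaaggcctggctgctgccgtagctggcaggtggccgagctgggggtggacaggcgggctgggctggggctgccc
The E-box of *Per1* starts 166 bases and its D-box 24 bases before the gene start, and the E-box of *Tef* 127 bases before it. The E-box stands in a window of 6.86% and the D-box in one of 3.63% of all genes with a window. Of 7 tested genes of the Per group with a window 2 held an E-box (*Per1* and *Tef*), and of 4 of the Bmal group 0 did.

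**Figure D3:**
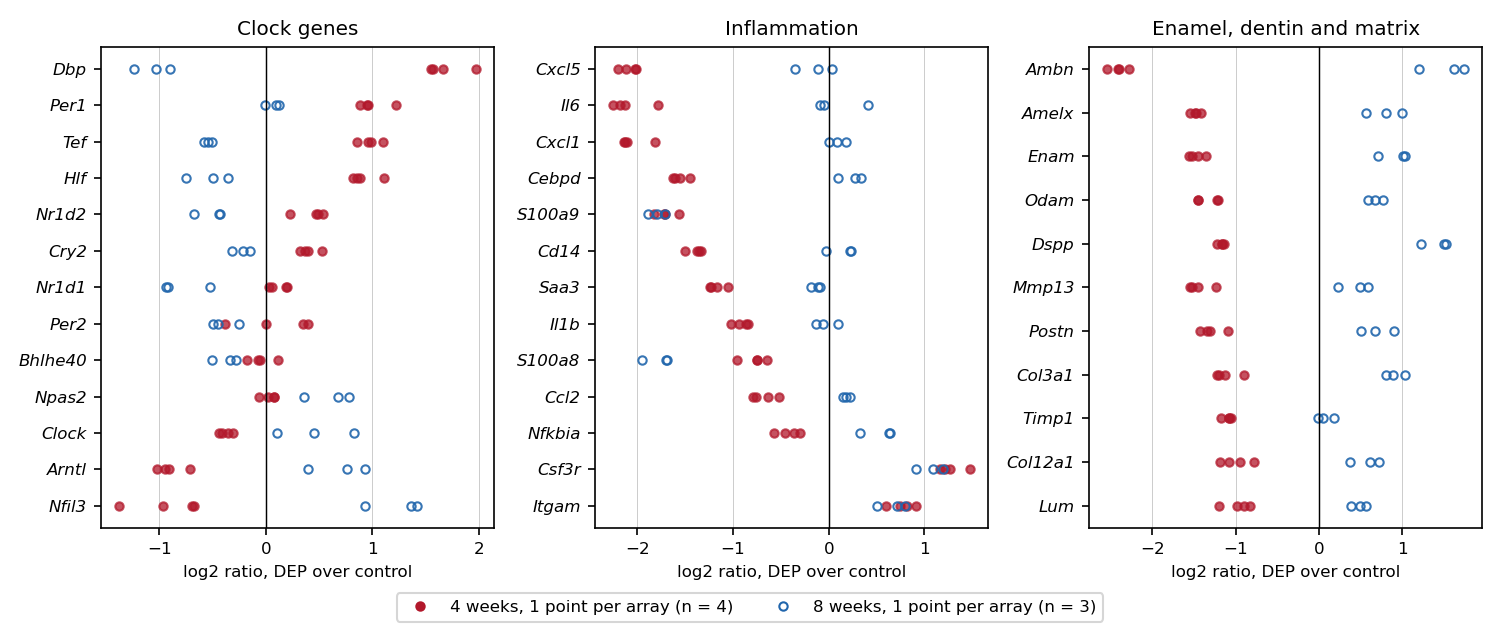
Log2 ratio of DEP over control (x axis) of clock genes, inflammation genes and genes of enamel, dentin and matrix, with 1 filled point per 4-week array (n = 4) and 1 open point per 8-week array (n = 3). The filled and open points of *Dbp*, *Arntl*, *Ambn* and *Dspp* lie on opposite sides of 0, those of *Cxcl5*, *Il6* and *Cxcl1* differ because the open points lie near 0, and those of *S100a9*, *Csf3r* and *Itgam* overlap or lie side by side.

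Cell cycle genes fell more often than they rose, with 16 and 4 of 28 tested (median -0.33). *Cdc20*, which lets the chromosomes part, had a mean of -0.91 (SE 0.050, adjusted p = 0.000485), *Birc5* had a mean of -0.88, *Ccnb2* one of -0.72 and *Mki67* one of -0.51. *Mcm5* (0.49), *Mcm6* (0.38) and *Mcm4* (0.23), subunits of the replication helicase, rose, as did *Hmmr* (0.19), of the mitotic spindle. *Cdc20* (0.65), *Birc5* (0.62) and *Mki67* (0.68) were above 0 at 8 weeks. Of the 28 genes 16 were higher and 2 lower at 8 than at 4 weeks, against 15.9% and 19.1% of all tested genes.

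Of 31 proteasome genes 15 fell and 1 rose, with a median of -0.18 that lay between -0.20 and -0.18 on single arrays. Of 23 genes of cholesterol synthesis 13 fell and 1 rose (median -0.23), with *Lss*, the lanosterol synthase, at -1.40, -0.79, -0.76 and -1.17 (mean -1.03, adjusted p = 0.00339) and *Sqle*, the squalene epoxidase, at -0.76. *Idi2*, an isomerase of the same route, was among the lowest genes, at -2.08, -2.42, -2.54 and -2.23 (mean -2.31). *Scd1*, a fatty acid desaturase, had a mean of -0.93 and *Pdk4*, which curbs the use of glucose, one of -0.90. Of 64 cytosolic ribosome genes 6 rose and 13 fell, and of 56 respiratory chain genes 6 rose and 10 fell, so both shares lay near or below the background. Of 29 heat shock and unfolded protein genes 12 fell and 1 rose, and of 22 immediate early genes 9 fell and 1 rose, with *Fos* at -0.67 and *Myc* at -0.50.

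The gene groups tied to the handling of combustion products moved in both directions. Their counts are read against the 23.6% of all tested genes that rose and the 16.9% that fell. Of 14 tested targets of the aryl hydrocarbon receptor 4 rose, which is near that background, and 5 fell (median -0.14). No member changed 2-fold. *Cyp1a1*, its most used reporter gene, was dim, with log2 ratios of 0.47, 0.08, 0.28 and 0.29 (mean 0.28, adjusted p = 0.031), and its call was lost without replicate 1, 3 or 4. *Cyp1a2*, a related oxidase, had a mean of 0.44 (adjusted p = 0.00837) and *Nqo1*, a quinone reductase, one of 0.27, while *Tiparp* fell (-0.30). Of 33 targets of Nrf2, the regulator of antioxidant genes, 11 rose and 11 fell (median -0.05), both larger shares than that background. *Gstm1*, a glutathione transferase, rose (0.59, adjusted p = 0.00148) and *Gsta2* fell (-0.78, on 3 arrays). *Hmox1*, the haem oxygenase, was at -0.38, -1.22, -0.10 and -1.63 and did not pass the test. The metallothioneins *Mt2* (-0.69) and *Mt4* (-1.82, SE 0.047, adjusted p = 0.000104), which bind zinc and copper, fell.

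Retinoic acid genes moved in both directions, with 8 of 20 that rose and 4 that fell. *Cyp26b1*, which breaks retinoic acid down, was at 0.74, 0.96, 0.78 and 1.08 (mean 0.89, adjusted p = 0.00115), the receptor *Rarb* had a mean of 0.85 with its brightest probe and of 0.18 with its other one, and *Aldh1a1*, which makes retinoic acid, one of 0.62. *Rbp4* (-0.56), the carrier of retinol, and *Rdh10* (-0.41), which oxidizes it, fell. *Ada*, adenosine deaminase, was among the genes that fell most, at -2.38, -2.58, -2.51 and -2.46, which is 5.6-fold lower (SE 0.050, adjusted p = 6.77e-05). Interferon-stimulated genes gave 5 that rose and 6 that fell of 27 (median 0.02).

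Genes were also grouped by the letters their symbols share. Of the families with at least 8 tested members, the highest medians belonged to Scgb (1.68 over 20 genes), Abca (0.35 over 9), Serpina (0.30 over 12), Mapk (0.27 over 18) and Ttll (0.26 over 10). The Ttll enzymes, which add glutamate or glycine to the tubulin of cilia and axons, had 8 members that rose and 0 that fell. The lowest belonged to Sprr (-0.58 over 8), Mup (-0.58 over 10), Ccl (-0.42 over 11), Lce (-0.39 over 15) and Acot (-0.38 over 9), which stand for envelope proteins, pheromone carriers, chemokines, late cornified envelope proteins and acyl-CoA thioesterases.

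Genes called in the same direction were often neighbours on a chromosome. In the RefSeq order of tested genes, 29 of 125 higher genes (23.2%) had another higher gene among the 3 next tested genes on either side, which held for 4.48% of the other genes, and 13 of 64 lower genes (20.3%) had a lower neighbour, against 2.39%. The runs of at least 3 genes were, among higher genes, the 13 secretoglobins on chromosome 7, *Serpina1a*, *Serpina1c* and *Serpina1e* on chromosome 12 and *Gm12888*, *Gm12887* and *9530002B09Rik* on chromosome 4, and, among lower genes, *Odam*, *BC037156*, *Ambn* and *Enam* on chromosome 5 and *Sprr2d*, *Sprr2h* and *Sprr1b* on chromosome 3. *BC037156*, whose function is not described here, had the lowest ratio of all called genes, at -2.83, -2.61, -2.59 and -2.30 (mean -2.58, SE 0.091, adjusted p = 0.000227). Runs of paralogs share sequence, and a probe may read several of them.

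Other genes with a low ratio were *Dynap* (-2.11), *U90926* (-1.67), *Crisp3* (-1.66), a secreted protein of glands and neutrophils, and *Scin* (-1.52), which severs actin. Of the lower genes outside the lists with the strongest statistics, *Spon2*, a matrix protein of innate defence, was at -1.51, -1.37, -1.39 and -1.43 (mean -1.43, adjusted p = 0.000197). *Fam25c* (-1.26), *2310057J18Rik* (-1.26), *Nudt7* (-1.19), *Vsig8* (-1.16), *Acot5* (-1.11) and *Tubb6* (-1.01) belong to the same set, and *Nudt7*, a peroxisomal hydrolase, was at -1.75 after 8 weeks while *Acot5* was at 0.88.

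*Prl* encodes prolactin, a hormone of the pituitary, and stood apart from the gland genes. Its log2 ratios were 2.46, 2.86, 2.79 and 2.62, which is 6.4-fold higher (SE 0.079, adjusted p = 0.000154), and at 8 weeks its mean was -1.86 (difference -4.54, adjusted p = 8.89e-07). *Gh*, growth hormone, had a measured mean of 1.12, which is 2.17-fold higher (adjusted p = 0.00092), with replicate 1 at 0.83. Its control signal was not well above background on any array. That signal was not below the lowest signal counted as well above background, so 2.17-fold is the measured value and not a lower limit. Of the other pituitary genes looked up after the value of *Prl* was seen, *Lhb* had a mean of 0.51 (adjusted p = 0.002), *Cga* one of 0.38 (adjusted p = 0.049, control signal not well above background) and *Pomc* one of -0.57. Whether pituitary tissue was present was not tested. A list of 15 genes of olfactory bulb interneurons, also looked up after values were seen, had 14 tested members with 3 that rose and 5 that fell (median -0.20), with *Penk* at -0.78 and *Pcp4* at -0.34.

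**Figure D4:**
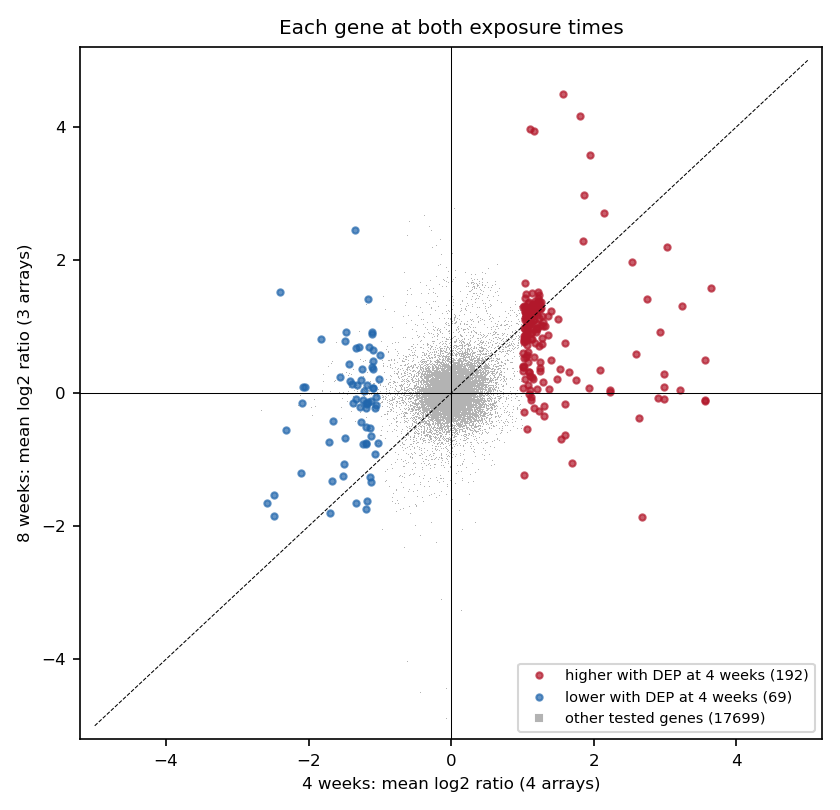
Mean log2 ratio of DEP over control after 4 weeks (x axis, 4 arrays) and after 8 weeks (y axis, 3 arrays) for each of the 17960 tested genes, with the 192 genes called higher at 4 weeks in red, the 69 called lower in blue, the others in grey and the line of equal values dashed. Many red points lie in a dense group at about 1 on both axes, the highest ones at 4 weeks lie below the line, and the blue points spread on both sides of 0 at 8 weeks.

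The genes called at 4 weeks were followed to the 8-week arrays. Of the 192 higher genes 172 had a ratio above 0 at 8 weeks, as 49.2% of all tested genes did, and 102 were also called higher there (2.29% of tested genes were). Of the 69 lower genes 39 had a ratio below 0, as 50.8% of all did, and 13 were called lower (0.952%). The median of the higher genes was 1.15 at 4 and 1.04 at 8 weeks, and that of the lower genes -1.24 and -0.13. A difference between the times of at least 2-fold with an adjusted p of at most 0.05 was found for 86 of the 261 genes, against 3.4% of all tested genes. Among the higher genes 41 were lower and 6 higher at 8 weeks, and among the lower genes 39 were higher and 0 lower.

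A large share of the higher genes had nearly the same ratio at both times. Of the 192, 119 (62%) differed by less than 0.5 on the log2 scale between 4 and 8 weeks, with 4-week log2 ratios from 1.01 to 1.85 and a median of 1.13, and 118 of these 119 were at most 1.5. Their median SD over the 4 arrays was 0.092, against 0.13 for the other higher genes. Examples are *Ung*, which removes uracil from DNA (1.24, 1.28, 1.28 and 1.26, and 1.38 at 8 weeks), *Bpifc* (1.22, 1.22, 1.23 and 1.23, and 1.47), *Btn1a1* (1.20 and 1.28) and *Atxn7* (1.21 and 1.43). Of the 119 genes 32 had more than 1 tested probe, and the probe with the lowest ratio had a median of 0.12, lay within 0.5 of 0 for 25 of the 32 genes and at 2-fold or more for 2. *Ndor1* had 1.27 at its brightest and 0.24 at its other probe, *Glrx2* 1.39 and -0.13, and *Kctd14* 1.35 and -0.05. *Dpysl5*, *Sema4c*, *Epha5*, *Sema6d*, *Kcna4*, *Csf3r* and *Tnfrsf9* belong to this group as well. A difference between the dyes at these probes cannot be told apart from one between the tissues.

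By contrast, 14 of the 69 lower genes (20.3%) were alike at both times, among them *S100a9* (-1.71 and -1.80) and *Scin* (-1.52 and -1.25). For 5 lower genes with more than 1 tested probe all probes were below 0, while for 15 of 43 such higher genes the probes lay on both sides of 0.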

How the data were processed

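Values start from 1 text file per array. The authors deposited the output of Agilent Feature Extraction 10.10.1.1, with median signals and local backgrounds as raw intensity values, processed signals as intensity values after the software's own background subtraction and dye normalization, and a log10 ratio of Cy5 over Cy3, which matched the ratio of the processed signals within 0.001 for 66.3% to 78.8% of spots per 4-week array and was not used. The GeneSpring normalization named in the methods is not part of these files. Here median signals were background-corrected with limma 3.58.1 in R 4.3.3 (normexp, offset 50), with the background fitted without spots marked as background outliers and then applied to every spot, followed by loess on the log2 ratios of each array. Spots flagged non-uniform got no weight, and a probe printed several times got the mean of its spots. No spot was saturated. Per array, 18661 to 23761 probes with DEP RNA and 17105 to 22691 with control RNA exceeded background clearly, and precision is limited by having 4 arrays.

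Of 39429 probes, 28330 could be named by looking up their accession among RefSeq genes (GRCm38.p6). Of the 17960 names tested 14136 are gene symbols. The mean of the 4 arrays was tested against 0 by limma's moderated statistics with Benjamini-Hochberg adjustment over 21850 probes. The difference between the exposure times was tested in a model of 7 arrays. The steps were tested on simulated data made from the 4-week arrays, in which 200 of 17960 genes were changed and 100% of those changed by 1.5 and by 2 on the log2 scale were called, with 0 unchanged genes called. The changed genes were drawn from those above a set intensity, and every probe had the same random spread. No probe had a dye difference or an outlying array of its own. The simulation therefore does not cover changes in dim genes or dye differences at single probes. Genes named are the 15 highest and 15 lowest called genes with the same sign on all arrays, list members, tissue markers, symbol families, references and, per direction, up to 10 genes outside the lists with the strongest statistics; others were named after their values were seen. A few single genes are not reported here. Members and lists were chosen with earlier results of these data known. Background correction, offset, scaling, filters, weights, the methods' test and leaving out each array were tried as alternatives. Sequences come from RefSeq promoters of GRCm38.p6, and no gene coordinates beside theirs were used.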

Additional observations from a re-analysis of the deposited data

Results flagged for a closer look

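Of 246 results on the 4-week arrays that were screened (single genes and medians of gene lists), 13 had 1 array apart from the other 3, where chance gives about 1 in 20. In 12 of the 13 it was replicate 1. That replicate had the smallest change for *Scgb2b2* (log2 ratio 3.31), *Pip* (1.88), *Sprr2d* (-2.26), *Cxcl1* (-1.82), *Muc5b* (0.059), *Fabp7* (-0.28), *Gh* (0.83) and the median of microvillar and tuft cell genes (0.030). It had the largest for *Cartpt* (-0.82), *Slc32a1* (-2.48), *Cxcl10* (-1.25) and the median of the tooth genes (-0.97). For *Gad2* it was replicate 4 (-3.00).

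Among the 30 genes with the highest and lowest ratios, 23 differed between 4 and 8 weeks at least 2-fold by the test of the difference itself. All 15 of the highest genes were lower at 8 weeks, by -2.07 for *Scgb2b2*, -3.67 for *Mucl2*, -3.06 for *Scgb1b2*, -1.92 for *Scgb1b3*, -2.70 for *Lpo*, -3.07 for *Scgb2b24*, -2.89 for *Scgb1b24*, -2.97 for *Gm1553*, -1.32 for *Scgb2b15*, -4.54 for *Prl*, -3.01 for *Esp6*, -2.01 for *Scgb1b10*, -2.18 for *Gm12888*, -1.74 for *Pip* and -1.85 for *9530002B09Rik*. Of the 15 lowest genes 8 were higher at 8 weeks, by 3.93 for *Ambn*, 1.76 for *Idi2*, 1.95 for *Cxcl5*, 2.18 for *Il6*, 2.14 for *Cxcl1*, 2.63 for *Mt4*, 1.24 for *Crisp3* and 1.80 for *Cebpd*. These genes were chosen for their 4-week values, and each exposure time had its own slide.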

How the results depend on the processing

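The 192 higher and 69 lower genes called at 2-fold depended most on the signal used. The processed signals gave 989 and 170, and an offset of 16 gave 112 lower genes. The other alternatives for these counts, among them one without spots marked as background outliers that was chosen after seeing the data, stayed within 1.5 times, and leaving out 1 array gave 186 to 203 higher and 65 to 79 lower genes. Without a fold limit, the 4240 genes that rose became 1991 with the background fitted on all spots, 2763 with median centring and 2628 with the test the methods name, and the 3035 that fell became 1596 and 1672 with the first and the last of these. Leaving out 1 array gave 2594 to 4467 and 1537 to 3327. The 611 genes that differed between the times were 610 with the replicate block, 1711 with the processed signals and 547 to 668 without 1 array. Same-numbered arrays did not deviate together (correlations of -0.00098, -0.014 and 0.018). Of 3378 values of 200 named genes under the alternatives, 3268 kept direction and side of the threshold, 85 were no longer past it, 21 newly passed it and 4 turned. These 4 were *Npas2* without background subtraction (-0.015), *Bpifa1* (-0.081) with the processed signals, and, over the settings without 1 array, *Per2* (-0.010 to 0.25) and *Foxj1* (-0.19 to 0.031). None of these genes passed the test in any of these settings. Of 289 medians of 17 gene lists under the alternatives, 222 moved by less than 1 SD over the arrays, 67 moved by more and 0 changed sign. Loess followed by Aquantile leaves ratios as they are by construction. The cause of these shifts was not tested.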
